A study of Rattus norvegicus with 3 samples.

Results

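Collagens are secreted proteins whose chains wind around one another into a long helix, and each chain is encoded by a gene of its own. Fibrillar collagens such as type I form the fibres of dentin, bone and soft connective tissue, while type IV builds the sheet-like basement membrane on which an epithelium rests. Ameloblasts, the epithelial cells that make enamel, arise in the cervical loop of the growing incisor, pass through a secretory stage and end in a maturation stage, and mesenchymal cells and blood vessels lie next to them throughout.

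The genes described here are the 42 collagen chains among 16516 genes, taken as every symbol of the form Col, type number, a, chain number, with Col17a1 left aside. Col6a3 and Col21a1 were not analysed here. RNA of 3 populations dissected from the enamel organ of Wistar Hannover rats was sequenced: cells of the cervical loop, ameloblasts in secretion and ameloblasts in maturation. Tissue came from 5 rats per the series' design, and the labels name no treatment, age or sex. The cervical loop sample of rat 1 was left out by the authors for low RNA integrity. Each stage was deposited as a single mean per gene, so no standard deviation stands beside a value and replicate error enters through the p-values of the authors' model alone. The scale of the means is not given in the sources used here. Read counts per gene were not analysed here, so no counting interval is given. Each library had 25000000 reads per the labels, and the means summed to 436717, 612568 and 484343 in the cervical loop, secretory and maturation stages. These means are not known to be corrected for transcript length, so levels are compared between stages. Ratios and shares across genes are given to follow them from stage to stage, and their size within a stage may reflect transcript length.

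Collagen RNA was present in all 3 populations. Neither type I chain passed a test between stages, Col3a1 and Col12a1 did, and chains of lower mean moved in both directions. The 42 chains together made up 2.77% of the summed means in the cervical loop, 2.09% in the secretory stage and 3.57% in maturation. Their summed means were 12097, 12798 and 17287, so the sum was not lower in secretion although the share was, and without the 12 other genes of largest mean the shares were 3.19%, 3.10% and 4.17%. Col1a1, Col1a2 and Col3a1 held 73.4%, 75.8% and 73.7% of that collagen sum. In these bulk samples, fewer cells of a type and less RNA per cell cannot be told apart. A chain was counted as higher or lower where the false discovery rate (FDR) per the authors' deposited table was under 0.05, with the direction taken from the stage means.

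From the cervical loop to the secretory stage 13 of 42 chains (31.0%) passed, 6 higher and 7 lower, against 41.8% of all genes, 16.5% higher and 25.2% lower. From secretory to maturation 17 (40.5%) passed, 9 higher and 8 lower, against 42.9% of all genes, 21.8% higher and 21.1% lower. Between cervical loop and maturation 25 (59.5%) passed, 12 higher and 13 lower, against 57.8% of all genes, 24.1% higher and 33.7% lower. In the last 2 pairs of stages these shares were close to those of all genes, so the number of changed chains is not in itself a property of collagens. At an FDR under 0.01 the chains counted as higher fell from 6 to 3 in the first pair and from 9 to 4 in the second. The median log2 ratio of the chains was -0.11, 0.13 and 0.16 in the 3 pairs, beside 16516 genes at -0.14, 0.00 and -0.12.

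In at least 1 pair of stages 27 of 42 chains passed, where 72.1% of all genes did. The counts below are also out of 42 chains, and each bracket gives the share of all genes with the same pattern. Higher in the cervical loop than in both later stages were 7 chains (18.6% of all genes): Col2a1, Col8a2, Col9a1, Col9a2, Col10a1, Col22a1 and Col26a1. Higher in the secretory stage than in both others were 3 chains (7.99% of all genes): Col14a1, Col20a1 and Col25a1. Maturation held 8 chains above both other stages (14.6% of all genes): Col5a3, Col8a1, Col12a1, Col13a1, Col15a1, Col18a1, Col27a1 and Col28a1. Lowest in the cervical loop were 3 chains (9.37% of all genes), lowest in the secretory stage 0 chains (6.2% of all genes) and lowest in maturation 7 chains (13.7% of all genes).

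**Figure D1:**
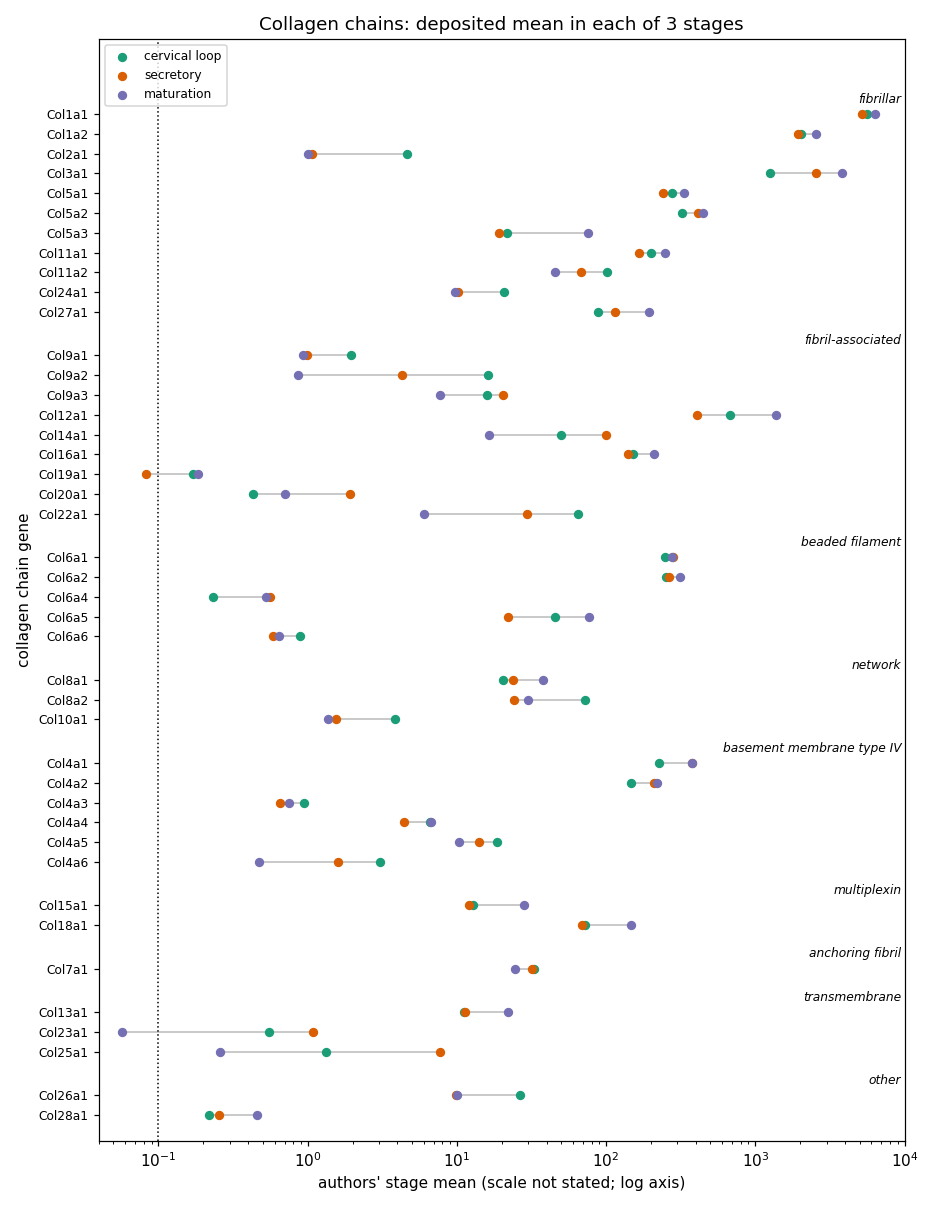
Each point is the authors' mean of 1 collagen chain in 1 stage on a log axis, with the 3 stages in colour, the grey line spanning their range and the dotted line marking the floor of 0.1. Col1a1, Col1a2, Col6a1 and Col6a2 sit almost at 1 place in all 3 stages, while Col9a2, Col22a1, Col25a1 and Col23a1, the last at the floor in maturation, spread over more than a factor of 10.

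The 9 ameloblast marker genes summed to 3004, 113431 and 11191 in cervical loop, secretory and maturation cells per the authors' deposited table. Against the cervical loop, 6 were higher and 0 lower in secretion, and the same counts held in maturation. From secretory to maturation 5 were higher and 4 lower, so the sum alone does not check each stage label. Markers of neighbouring cells moved with some of the collagens. The 19 mesenchyme markers summed to 2411, 1561 and 2290 in cervical loop, secretory and maturation cells per the authors' deposited table, and from cervical loop to secretory 1 was higher, 7 were lower and 11 did not pass. From secretory to maturation 10 of those mesenchyme markers were higher, 3 lower and 6 did not pass. The 12 markers of odontoblast and bone summed to 1621, 1192 and 1546 per the authors' deposited table. Their median log2 ratio was -0.997 in secretion against the cervical loop (1 higher, 0 lower, 11 not passed). For maturation against the cervical loop it was -1.40 (2 higher, 3 lower, 7 not passed), although the 2 sums were close. Of these markers, Dspp and Sost reached the floor of 0.1 in at least 1 stage. Endothelial markers (12 genes) summed to 246, 333 and 474, with 9 higher, 0 lower and 3 not passed between cervical loop and maturation per the authors' deposited table. Myeloid markers (11 genes) summed to 264, 228 and 743, with 9 higher and 0 lower from secretory to maturation per the authors' deposited table. Muscle and pericyte markers (12 genes) summed to 313, 247 and 275, and nerve and Schwann markers (9 genes) to 61.9, 32.6 and 42.3, per the authors' deposited table. In maturation against the cervical loop their median log2 ratios were 0.76 (3 higher, 3 lower) and 0.79 (3 higher, 2 lower), although both sums were lower in maturation. Apart from Dspp and Sost, no marker of these lists was at the floor in any stage. The part of these cells in the collagen results was not tested.

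Type I collagen, the main fibre of dentin, bone and dermis, is a helix of Col1a1 and Col1a2 chains. Col1a1 stood at 5618, 5218 and 6385 in cervical loop, secretory and maturation cells per the authors' deposited table, and its FDR was 0.519, 0.223 and 0.548 for secretory against cervical loop, maturation against secretory and maturation against cervical loop. Col1a2 stood at 2018, 1930 and 2534 in the same stages of the authors' deposited table (FDR = 0.584, 0.105 and 0.221 in the same order of pairs). Neither chain passed in any pair, and no stage mean was more than 1.31-fold above another. Their ratio was 2.78, 2.70 and 2.52, so the pair kept nearly the same proportion at every stage.

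Type III collagen, made of Col3a1 alone and common in soft and vascular connective tissue, went its own way. Col3a1 stood at 1246, 2547 and 3826 per the authors' deposited table. It was 2.04-fold higher in secretory than in cervical loop cells (FDR = 0.0228) and 3.07-fold higher in maturation (FDR = 0.00257) per the authors' deposited table, while the step from secretory to maturation did not pass (1.5-fold, FDR = 0.117). The ratio of Col3a1 to Col1a1 was 0.222 in the cervical loop, 0.488 in the secretory stage and 0.599 in maturation. Mesenchyme markers, given above, summed lowest in the secretory stage, while Col3a1 was lowest in the cervical loop. Endothelial markers summed to 246, 333 and 474 and epithelial markers to 1949, 2907 and 5501 per the authors' deposited table. Both sums were in the same order as Col3a1, and the part of either was not tested.

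Type V chains set the width of type I fibrils. Col5a1 stood at 276.5, 241 and 331 and Col5a2 at 322, 410 and 443 per the authors' deposited table, and neither passed in any pair. Col5a2 came nearest, 1.37-fold higher in maturation than in the cervical loop (FDR = 0.0517) per the authors' deposited table. Col5a3, the minor chain of the type, stood at 21.6, 19.1 and 76.1 per the authors' deposited table. It was 3.99-fold higher in maturation than in secretion (FDR = 0.008) and 3.53-fold higher than in the cervical loop (FDR = 0.00528) per the authors' deposited table. Its ratio to Col5a1 was 0.078, 0.0793 and 0.23, so the change lay in maturation.

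Among types XI, XXIV and XXVII, Col27a1 passed and Col11a1, Col11a2 and Col24a1 did not. Col27a1, known from cartilage, stood at 87.6, 114 and 195 per the authors' deposited table and was 1.7-fold higher in maturation than in secretion (FDR = 0.0111) and 2.22-fold higher than in the cervical loop (FDR = 0.00198). The type XI chain Col11a1, a partner of type II in cartilage fibrils, stood at 200.3, 167 and 248 per the authors' deposited table (FDR = 0.343, 0.0969 and 0.388). Col11a2 stood at 101, 68.3 and 45.5 per the authors' deposited table (FDR = 0.324, 0.721 and 0.442). Col24a1 stood at 20.6, 10.2 and 9.78 per the authors' deposited table (FDR = 0.111, 0.568 and 0.184). For Col11a2 and Col24a1 the means differed more than 2-fold between cervical loop and maturation without passing.

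Types II, IX and X, also known from cartilage, were lower in maturation than in the cervical loop, the opposite of Col27a1 above. Col2a1, the main chain of cartilage, stood at 4.62, 1.06 and 1.01 per the authors' deposited table, 4.34-fold lower in secretory cells (FDR = 0.00178) and 4.58-fold lower in maturation (FDR = 0.000726). Col10a1, of hypertrophic cartilage, stood at 3.86, 1.56 and 1.38 per the authors' deposited table, 2.48-fold (FDR = 0.00322) and 2.8-fold lower (FDR = 0.00107). With 1 added to each mean, the Col2a1 differences became 2.72-fold and 2.8-fold, and those of Col10a1 1.9-fold and 2.04-fold.

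The 3 type IX chains, which coat cartilage fibrils, parted from one another. Col9a2 stood at 16.3, 4.3 and 0.858 per the authors' deposited table. It was 3.79-fold lower in secretory than in cervical loop cells (FDR = 0.00654) and 19-fold lower in maturation (FDR = 0.000206) per the authors' deposited table, or 9.3-fold with 1 added to each mean. The further fall from secretory to maturation was 5-fold (FDR = 0.00245 per the authors' deposited table), or 2.85-fold with 1 added. Col9a1 stood at 1.94, 0.983 and 0.931 per the authors' deposited table, 1.98-fold (FDR = 0.00196) and 2.09-fold lower (FDR = 0.000955) than in the cervical loop. With 1 added to each mean these Col9a1 differences were 1.48-fold and 1.52-fold. Col9a3 stood at 15.9, 20.4 and 7.73 per the authors' deposited table and fell only after secretion, 2.64-fold (FDR = 0.00612). The ratio of Col9a2 to Col9a3 went from 1.02 in the cervical loop to 0.21 in secretion and 0.111 in maturation. Beside these chains, 7 cartilage markers summed to 98.6, 75.7 and 37.5 per the authors' deposited table, with 0 higher, 4 lower and 3 not passed between cervical loop and maturation, and their part was not tested.

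**Figure D2:**
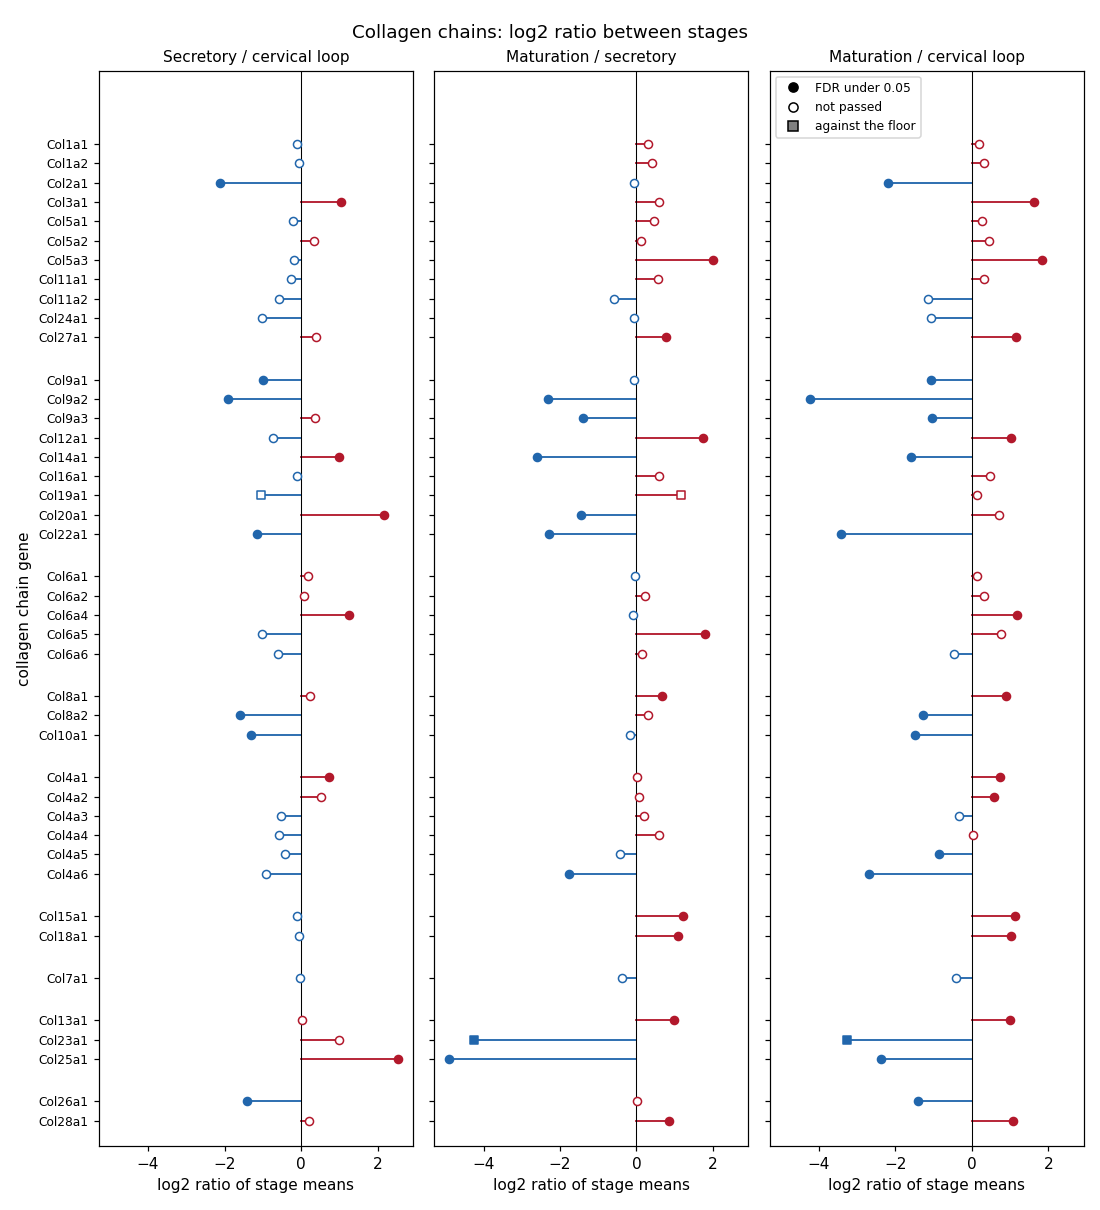
Each row is a collagen chain and each panel 1 pair of stages, with the log2 ratio of stage means on the horizontal axis, filled symbols for FDR under 0.05 and squares where 1 of the means was at or below the floor of 0.1. The second panel shows Col25a1 and Col14a1 lower and Col5a3, Col12a1 and Col6a5 higher in maturation, and the third shows Col9a2 and Col22a1 lower.

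Fibril-associated collagens bind to the surface of type I fibres and link them to other matrix, and types XII and XIV moved in opposite directions. Col12a1 stood at 675, 406 and 1367 per the authors' deposited table. Maturation was 3.37-fold above secretion (FDR = 0.00186) and 2.03-fold above the cervical loop (FDR = 0.00723) for Col12a1 per the authors' deposited table. Col14a1 stood at 50.2, 101 and 16.5 per the authors' deposited table, highest in secretion. For Col12a1 the difference between secretory and cervical loop cells did not pass (1.66-fold, FDR = 0.0682 per the authors' deposited table). Col14a1 was 2-fold higher in secretory than in cervical loop cells (FDR = 0.0052) and 6.08-fold lower in maturation than in secretion (FDR = 0.000191) per the authors' deposited table. The ratio of Col12a1 to Col14a1 was 13.5, 4.04 and 82.7 in the 3 stages.

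Type XXII collagen is known from junctions between tissues. Col22a1 stood at 64.9, 29.3 and 6.05 per the authors' deposited table and passed at each step: 2.21-fold lower in secretory than in cervical loop cells (FDR = 0.0343), then 4.85-fold lower in maturation (FDR = 0.00285). Over both steps it was 10.7-fold lower (FDR = 0.0004 per the authors' deposited table). Col20a1 stood at 0.432, 1.93 and 0.701 per the authors' deposited table, 4.48-fold higher in secretion than in the cervical loop (FDR = 0.00199) and 2.76-fold lower again in maturation (FDR = 0.00463). At these low means 1 added to each gave 2.05-fold and 1.72-fold for Col20a1. Col16a1 stood at 151, 139 and 210.2 per the authors' deposited table and passed in no pair (smallest FDR = 0.104). Col19a1 stood at 0.17, 0.0829 and 0.186 per the authors' deposited table, at the floor in secretion, and passed in no pair.

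Type VI collagen forms beaded filaments around cells. Col6a1 stood at 248, 281 and 275 and Col6a2 at 252, 266 and 313 per the authors' deposited table, where neither passed in any pair (smallest FDR = 0.211). Their ratio was 0.985, 1.06 and 0.878. Col6a5 stood at 45.2, 22.1 and 77.1 per the authors' deposited table and was 3.49-fold higher in maturation than in secretion (FDR = 0.00648). Against the cervical loop, neither stage passed for Col6a5 (FDR = 0.0752 and 0.0558 per the authors' deposited table). Col6a4 stood at 0.232, 0.557 and 0.525 per the authors' deposited table, 2.4-fold (FDR = 0.0168) and 2.26-fold (FDR = 0.0125) above the cervical loop, or 1.26-fold and 1.24-fold with 1 added to each mean. Col6a6, beside them on the chromosome, stood at 0.893, 0.584 and 0.646 per the authors' deposited table and passed in no pair.

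The type VIII chains, which build sheets beneath endothelia, moved apart. Col8a1 stood at 20.3, 23.7 and 38.0 per the authors' deposited table, 1.87-fold higher in maturation than in the cervical loop (FDR = 0.00784) and 1.6-fold higher than in secretion (FDR = 0.0298). Col8a2 stood at 72.4, 24.2 and 29.97 per the authors' deposited table, 3-fold lower in secretion (FDR = 0.00437) and 2.42-fold lower in maturation (FDR = 0.00555) than in the cervical loop. Their ratio, Col8a1 to Col8a2, was 0.281, 0.982 and 1.27.

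Type IV collagen is the scaffold of basement membranes, and its 6 chains lie as 3 head-to-head gene pairs. The general chains Col4a1 and Col4a2 are found in nearly all basement membranes, while Col4a3, Col4a4, Col4a5 and Col4a6 serve particular ones. Each pair starts from neighbouring positions and is read outwards on opposite strands in RefSeq (build GRCr8, not the build rn6 of the deposited values). The starts lie 76 bases apart for Col4a2 and Col4a1 on chromosome 16, 412 for Col4a4 and Col4a3 on chromosome 9, and 1414 for Col4a6 and Col4a5 on chromosome X. The whole stretch between the starts of Col4a2 and Col4a1 (chr16:84885521-84885596, plus strand) is shown because both chains rose from cervical loop to maturation, and the 250 bases before the starts of Col4a5 (chrX:109907109-109907358, plus strand) and Col4a6 (chrX:109905945-109906194, minus strand) because these chains fell. The stretch before Col4a3 (chr9:91323740-91323989, plus strand), of a pair in which neither chain passed, and that before Col1a2 (chr4:33518307-33518556, plus strand), whose mean was nearly level, stand beside them. Capitals mark 3 motifs on either strand: GGGCGG, the GC box; CCAAT, the box of that name; and TATAAA, the TATA box.
Col4a2 to Col4a1: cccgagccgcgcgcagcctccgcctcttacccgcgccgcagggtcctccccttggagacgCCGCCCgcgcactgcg
Col4a5: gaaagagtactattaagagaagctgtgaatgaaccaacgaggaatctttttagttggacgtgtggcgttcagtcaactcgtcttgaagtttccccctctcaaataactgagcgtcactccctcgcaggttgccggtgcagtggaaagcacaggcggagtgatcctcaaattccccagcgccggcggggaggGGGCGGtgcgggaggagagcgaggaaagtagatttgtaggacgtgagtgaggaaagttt
Col4a6: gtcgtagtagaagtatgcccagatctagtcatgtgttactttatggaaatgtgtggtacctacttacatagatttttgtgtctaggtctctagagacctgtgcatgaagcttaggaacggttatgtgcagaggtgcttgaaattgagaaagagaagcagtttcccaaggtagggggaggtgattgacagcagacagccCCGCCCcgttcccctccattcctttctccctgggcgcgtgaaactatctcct
Col4a3: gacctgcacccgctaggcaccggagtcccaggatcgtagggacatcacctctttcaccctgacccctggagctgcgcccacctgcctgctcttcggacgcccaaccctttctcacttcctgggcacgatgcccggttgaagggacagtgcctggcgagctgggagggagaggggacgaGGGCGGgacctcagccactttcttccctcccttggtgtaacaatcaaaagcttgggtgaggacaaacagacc
Col1a2: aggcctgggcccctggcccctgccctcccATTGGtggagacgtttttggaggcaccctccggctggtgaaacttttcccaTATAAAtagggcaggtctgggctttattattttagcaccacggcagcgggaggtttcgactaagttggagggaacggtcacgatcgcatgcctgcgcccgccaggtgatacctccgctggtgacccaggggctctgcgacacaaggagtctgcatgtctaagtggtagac

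The 4 type IV stretches shown each held 1 GC box and neither of the other motifs, and that of Col1a2 held 1 CCAAT box and 1 TATA box and no GC box. The stretch between Col4a2 and Col4a1 is only 76 bases long. In the 250 bases before their starts, Col4a1 and Col4a2 each had a CCAAT box as well. Those 76 bases were 78.9% G or C. The 250-base stretches were 52.8% before Col4a5, 48% before Col4a6, 62% before Col4a3 and 58.4% before Col1a2, so the lengths compared differ. RefSeq promoters matched 33 of the 42 chains, and 9 were not matched: Col1a1, Col2a1, Col3a1, Col6a2, Col9a3, Col12a1, Col14a1, Col22a1 and Col25a1. In the 250 bases before the start a GC box was found for 19 of 33 chains (57.6%) and 32.4% of 27457 promoters. A CCAAT box was found for 10 chains (30.3%) and 34.3% of promoters, and a TATA box for 3 chains (9.09%), Col1a2, Col10a1 and Col13a1, and 13.1% of promoters. The windows of Col4a1 and Col4a2 overlap and share bases, and a match of letters is a description and not a binding site.

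The general type IV chains were higher in maturation than in the cervical loop, and none of the other 4 passed as higher there. Col4a1 stood at 227, 376 and 379 per the authors' deposited table. Secretory cells were 1.65-fold (FDR = 0.0353) and maturation cells 1.67-fold above the cervical loop (FDR = 0.0189) for Col4a1 per the authors' deposited table. Its partner Col4a2 stood at 146, 209 and 218 per the authors' deposited table, with 1.49-fold in maturation against the cervical loop passing (FDR = 0.04) and 1.43-fold in secretion not (FDR = 0.0886). The ratio of Col4a1 to Col4a2 was 1.55, 1.80 and 1.73. Neither general chain differed between secretion and maturation by the test (FDR = 0.955 and 0.814 per the authors' deposited table).

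Col4a5 and Col4a6, which pair in epithelial basement membranes, went down. Col4a5 stood at 18.7, 14.1 and 10.3 per the authors' deposited table and was 1.81-fold lower in maturation than in the cervical loop (FDR = 0.00633). Col4a6 stood at 3.03, 1.61 and 0.472 per the authors' deposited table, 6.43-fold lower in maturation than in the cervical loop (FDR = 0.000981) and 3.41-fold lower than in secretion (FDR = 0.00807). With 1 added to each mean these were 2.74-fold and 1.77-fold. The ratio of Col4a5 to Col4a1 was 0.0822, 0.0374 and 0.0273, falling at each step. Col4a3 (0.939, 0.653 and 0.748) and Col4a4 (6.61, 4.42 and 6.7) passed in no pair per the authors' deposited table.

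Types XV and XVIII, multiplexin collagens of the outer side of basement membranes and vessel walls, were higher in maturation than in both other stages. Col18a1, whose end fragment is endostatin, stood at 72.4, 69.4 and 146 per the authors' deposited table, 2.1-fold higher in maturation than in secretion (FDR = 0.00159) and 2.01-fold higher than in the cervical loop (FDR = 0.00119). Col15a1 stood at 12.9, 12.1 and 28.3 per the authors' deposited table, 2.34-fold (FDR = 0.0103) and 2.19-fold higher in maturation (FDR = 0.0097). The earlier stages did not differ by the test for either gene (FDR = 0.801 for Col18a1 and 0.812 for Col15a1 per the authors' deposited table). Their ratio was 5.6, 5.74 and 5.15. Endothelial markers summed highest in the same stage, with 6 of 12 higher and 0 lower from secretion to maturation per the authors' deposited table. Other lists rose at that step too. Of 11 myeloid markers 9 were higher and 0 lower, of 17 epithelial markers 9 and 2, and of 19 mesenchyme markers 10 and 3. The part of any of these cells in the rises of Col15a1 and Col18a1 was not tested.

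Type VII collagen anchors the epithelial basement membrane to the fibres below. Col7a1 stood at 32.7, 32.0 and 24.6 per the authors' deposited table and passed in no pair (FDR = 0.647, 0.478 and 0.203). Epithelial markers per the authors' deposited table (17 genes) summed to 1949, 2907 and 5501, with 10 higher and 2 lower between cervical loop and maturation.

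The transmembrane collagens sit in the cell surface and can be shed, and the 3 chains did not move together. Col25a1 stood at 1.33, 7.74 and 0.257 per the authors' deposited table. It was 5.83-fold higher in secretion than in the cervical loop (FDR = 0.00309) and 30.1-fold lower in maturation than in secretion (FDR = 0.000392) per the authors' deposited table. Maturation also lay 5.15-fold below the cervical loop (FDR = 0.00408 per the authors' deposited table). With 1 added to each mean these were 3.76-fold, 6.95-fold and 1.85-fold. Col23a1 stood at 0.548, 1.09 and 0.0574 per the authors' deposited table, so maturation was at the floor and no fold is given (FDR = 0.00293 against secretion and 0.00384 against the cervical loop). Col13a1, found at cell contacts in many tissues, went the other way: it stood at 11.2, 11.3 and 22.1 per the authors' deposited table. Maturation was 1.96-fold above secretion (FDR = 0.0121) and 1.98-fold above the cervical loop (FDR = 0.00726) for Col13a1 per the authors' deposited table.

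Col26a1 and Col28a1 belong to none of these classes. Col26a1 stood at 26.6, 9.92 and 9.97 per the authors' deposited table, 2.68-fold lower in secretion (FDR = 0.00414) and 2.67-fold lower in maturation (FDR = 0.00229) than in the cervical loop. Col28a1 stood at 0.217, 0.253 and 0.455 per the authors' deposited table, 1.8-fold (FDR = 0.047) and 2.09-fold higher in maturation (FDR = 0.0178), or 1.16-fold and 1.19-fold with 1 added to each mean.

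By tissue, the 28 chains read as mesenchyme moved in both directions. Between cervical loop and maturation 6 were higher, 8 lower and 14 did not pass, with a median log2 ratio of 0.22, beside 24.1% higher and 33.7% lower of all genes. Of the 8 basement membrane chains 4 were higher, 2 lower and 2 did not pass, with a median log2 ratio of 0.30. Of the 4 chains read as epithelial (Col7a1, Col13a1, Col23a1 and Col25a1) 1 was higher, 2 were lower and 1 did not pass. With so few members, these counts are not set apart from those of all genes. As a share of the summed means, the mesenchyme chains took 2.64%, 1.97% and 3.39%, the basement membrane chains 0.112%, 0.112% and 0.163%, and the epithelial chains 0.0105%, 0.00851% and 0.00972% in the 3 stages. The reading rests on the chain's class alone, which puts Col8a1 and Col8a2 with mesenchyme and all 3 transmembrane chains with epithelium. The cells that made the RNA were not measured.

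**Figure D3:**
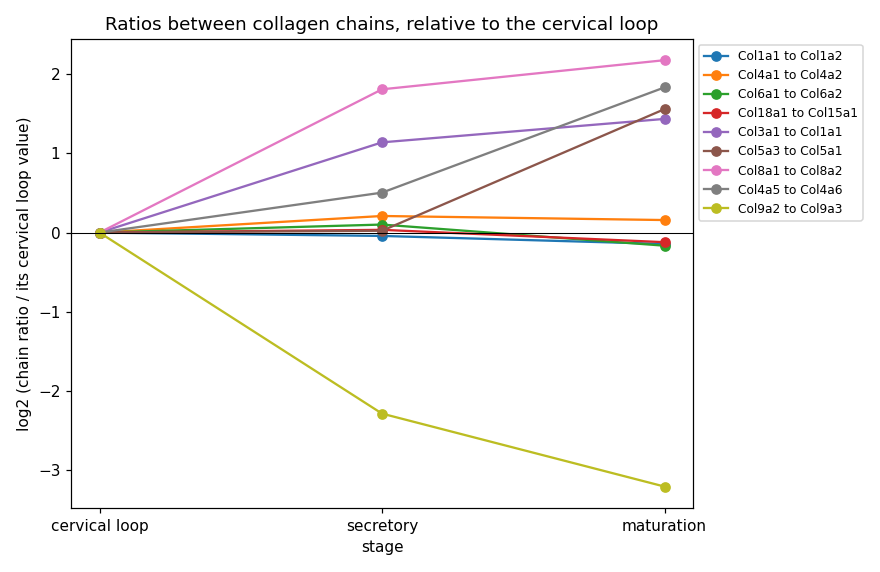
Lines show the ratio of the means of 2 collagen chains in each stage on the vertical axis, as log2 relative to that ratio in the cervical loop. Col1a1 to Col1a2, Col4a1 to Col4a2, Col6a1 to Col6a2 and Col18a1 to Col15a1 stay near 0, while Col8a1 to Col8a2 rises from 0.281 to 1.27 and Col9a2 to Col9a3 falls from 1.02 to 0.111.

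With the protein-coding genes of RefSeq ordered by start coordinate, 7 pairs of collagen genes follow directly on each other. Besides the type IV pairs Col4a2 with Col4a1 and Col4a4 with Col4a3, these are Col6a1 with Col6a2, Col6a6 with Col6a5, Col6a5 with Col6a4, Col9a1 with Col19a1, and Col3a1 with Col5a2. By this rule Col4a6 with Col4a5 is not counted, although it is a head-to-head pair. The ratios of Col4a1 to Col4a2 and of Col6a1 to Col6a2, given above, moved little between stages. Col3a1 was 3.07-fold and Col5a2 1.37-fold higher in maturation than in the cervical loop per the authors' deposited table, and Col5a2 did not pass (FDR = 0.0517).

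The deposited isoform tables hold 20 transcripts of 8 collagen genes. Of the 20 transcripts, 4 passed between cervical loop and secretion (16% of all transcripts), 8 between secretion and maturation (17%) and 4 between cervical loop and maturation (25.1%). A change in isoform make-up passed for 0 of 8 genes in secretory against cervical loop, 1 in maturation against secretory and 0 in maturation against cervical loop. Beside these stand 1.19% of the 4050 genes tested for it, 1.8% of 4051 and 2.79% of 4050 in the same order. At an unadjusted p under 0.05 it did so for 1, 1 and 1 genes. No other tool was run on these p-values.

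The gene that passed was Col25a1 (FDR = 0.0479 per the authors' deposited table). Its transcripts 201, 202 and 203 stood at 3.12, 2.91 and 1.8 in secretion and at 0.0618, 0.0569 and 0.202 in maturation per the authors' deposited table. In maturation the first and second were at the floor, so the make-up there rests on levels close to none. In the cervical loop they stood at 0.96, 0.222 and 0.205 per the authors' deposited table, and the make-up did not differ from secretion by the test (FDR = 0.884).

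For Col5a1 the tables differed. Transcripts 201 and 202 of Col5a1 went from 183 to 247 (1.35-fold, FDR = 0.0366) and from 58.4 to 87.6 (1.5-fold, FDR = 0.00912) between secretion and maturation per the authors' deposited table of transcripts, while the gene did not pass (FDR = 0.195). Both transcripts of Col6a5 rose with the gene, 3.72-fold for 201 (FDR = 0.000562) and 2.59-fold for 202 (FDR = 0.00278) per the authors' deposited table.

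A collagen chain needs enzymes and carriers to leave the cell and partners outside it, and these lists were read beside the chains. The counts below stand beside 16.5% higher and 25.2% lower of all genes in secretion against the cervical loop, 21.8% and 21.1% in maturation against secretion, and 24.1% and 33.7% in maturation against the cervical loop. Of 14 genes that hydroxylate or glycosylate collagen, 5 were higher and 4 lower in secretion than in the cervical loop, 3 and 5 in maturation against secretion, and 3 and 5 in maturation against the cervical loop. The median log2 ratios of this list were 0.21, -0.29 and -0.38, and its 8 of 14 passing in the last pair is close to the 57.8% of all genes. P4ha2 and Plod2, a prolyl and a lysyl hydroxylase, were 4.99-fold (FDR = 0.00156) and 3.42-fold (FDR = 0.00608) higher, and P4hb 1.35-fold higher (FDR = 0.00326), in secretion than in the cervical loop per the authors' deposited table. Both hydroxylases were then lower in maturation than in secretion, P4ha2 7.29-fold (FDR = 0.000655) and Plod2 8.78-fold (FDR = 0.000803) per the authors' deposited table. In that pair P3h1, P4hb and Ppib were 2.46-fold, 1.62-fold and 1.69-fold lower per the authors' deposited table (largest FDR = 0.000591). Against the cervical loop, Ppib and P3h3 were 1.59-fold and 1.57-fold lower and Colgalt2 7.7-fold higher in maturation per the authors' deposited table, the last 4.68-fold with 1 added to each mean.

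Folding and export genes of collagen (17 genes) were higher in 5 and lower in 3 cases in secretion against the cervical loop, 2 and 9 in maturation against secretion, and 5 and 8 in maturation against the cervical loop. Mia2, Sec24d and Tmem38b were 1.92-fold, 1.63-fold and 2.05-fold higher in secretion than in the cervical loop per the authors' deposited table. Creb3l2, a factor for secretory genes, and Sec24d were 4.2-fold and 1.85-fold lower, and Tmem38b 2.23-fold higher, in maturation than in secretion per the authors' deposited table. In maturation against the cervical loop Fkbp9 and Sec23a were 1.57-fold lower each and Tmem38b 4.57-fold higher per the authors' deposited table.

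Among 14 genes for trimming and crosslinking the secreted chains, 2 were higher and 6 lower in secretion against the cervical loop, 4 and 1 in maturation against secretion, and 3 and 4 in maturation against the cervical loop. Tll1, a protease of the Bmp1 family, was 13.8-fold higher and Adamts3, a propeptide protease, 6.33-fold lower in secretion than in the cervical loop per the authors' deposited table. Tll2, of the same family, went from 1.53 in the cervical loop to 0.0577 and 0.0939, both at the floor, per the authors' deposited table (FDR = 0.000452 and 0.000149 against the cervical loop). In maturation Tll1 was 6.62-fold lower, Bmp1 1.99-fold higher and Adamts3 2.75-fold higher than in secretion per the authors' deposited table. Loxl3 and Pxdn, which crosslink fibrillar and type IV collagen, were 2.81-fold and 1.63-fold lower in maturation than in the cervical loop per the authors' deposited table.

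Of 13 receptors and surface partners of collagen, 7 were higher and 4 lower in secretion against the cervical loop, 2 and 3 in maturation against secretion, and 8 and 2 in maturation against the cervical loop. All genes were 16.5% higher and 25.2% lower in the first of these pairs. The 8 higher in the last pair were Itga1, Itgb1, Ddr1, Dag1, Cd44, Itga3, Itgb4 and Itga6, of which Itga3, Itga6, Itgb4 and Dag1 are known mainly as laminin receptors. The collagen receptors Itga2 and Ddr2 were 2.68-fold (FDR = 0.00142) and 2.21-fold (FDR = 0.00178) lower in maturation than in the cervical loop, and Itga10, Itga11 and Mrc2 did not pass (FDR = 0.294, 0.0752 and 0.217), per the authors' deposited table. Cd44, Itga3 and the collagen-binding integrin chain Itga1 were 3.82-fold, 3.31-fold and 2.41-fold higher in secretion than in the cervical loop per the authors' deposited table. In maturation Itga6 and Itgb1 were 2.81-fold and 1.56-fold higher and Itga3 2.18-fold lower than in secretion per the authors' deposited table. Against the cervical loop Cd44, Itga6 and Itgb1 were 4.29-fold, 1.76-fold and 1.65-fold higher in maturation per the authors' deposited table.

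Proteins that bind collagen fibres (16 genes) were higher in 2 and lower in 3 cases in secretion against the cervical loop, 6 and 0 in maturation against secretion, and 4 and 0 in maturation against the cervical loop. Fn1 and Omd were 2.13-fold lower each and Thbs1 2.4-fold higher in secretion than in the cervical loop per the authors' deposited table. Lum, Bgn and Fn1 were 2.35-fold, 1.91-fold and 1.84-fold higher in maturation than in secretion per the authors' deposited table. Thbs1, Lum and Fbn1 were 3.63-fold, 1.74-fold and 1.54-fold higher in maturation than in the cervical loop per the authors' deposited table.

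Of 23 basement membrane partners of type IV collagen, 4 were higher and 10 lower in secretion against the cervical loop, 3 and 14 in maturation against secretion, and 6 and 16 in maturation against the cervical loop, with median log2 ratios of -0.37, -0.60 and -0.73. Over all genes more were lower than higher in the first and last of these pairs too (25.2% against 16.5%, and 33.7% against 24.1%). The summed means of the list went the other way at first, with 2193, 5574 and 1791 in cervical loop, secretory and maturation cells per the authors' deposited table. Col4a1 and Col4a2 rose in that last pair, while the laminin chain gene Lama1 was 3.17-fold and the surface matrix genes Frem1 and Egfl6 43.9-fold and 22.9-fold lower per the authors' deposited table, Egfl6 5.02-fold with 1 added to each mean. In secretion the laminin chain gene Lamb3 was 15.2-fold higher and Smoc2 4.7-fold lower than in the cervical loop per the authors' deposited table. From secretion to maturation Lama5 was 2.47-fold higher and Frem1 and Lama1 13.9-fold and 2.46-fold lower per the authors' deposited table.

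**Figure D4:**
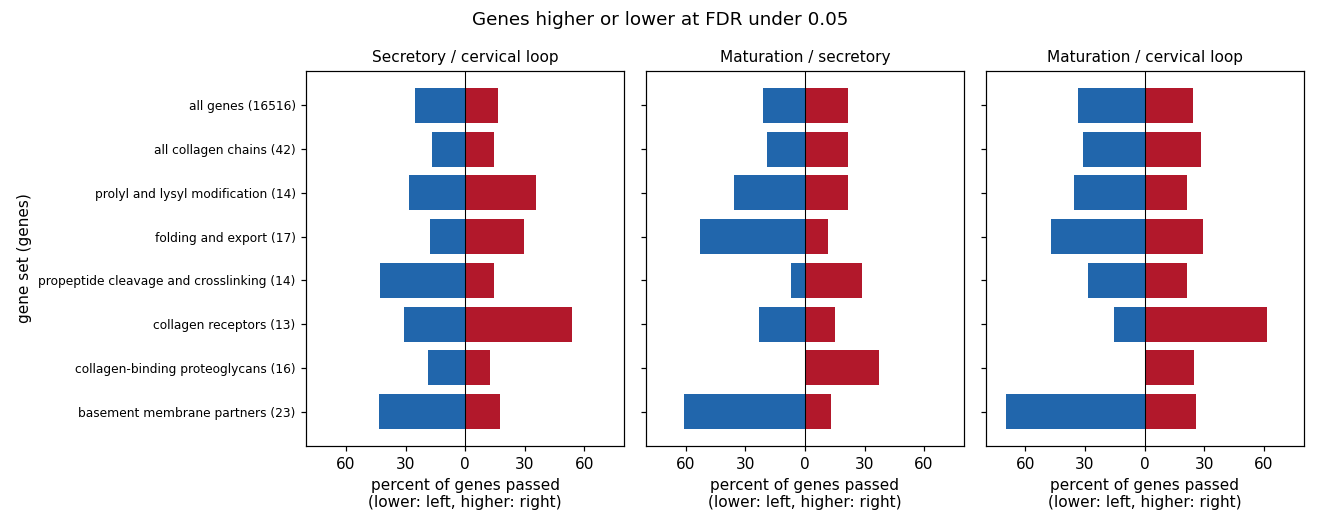
Bars give the percent of each gene set that was higher (right) or lower (left) at an FDR under 0.05 in each pair of stages, with the number of genes measured in brackets. The 42 collagen chains have bars on both sides, as all genes do, while basement membrane partners extend to the left (16 of 23 lower in maturation against cervical loop) and the receptor list to the right (8 of 13 higher).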

How the data were processed

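Libraries were made from 3 populations of rat enamel organ cells, with an RNA integrity number of at least 7 and single-end reads of 75 bases per the labels. STAR 2.5.3a, Partek and rn6 stand in the submitters' processing notes; for annotation, gene filter, normalisation and the model's terms the entry is: not given in the sources used here. The authors deposited least-squares means per gene and stage (other units: scale not stated), p-values and FDR of their model, and the ratio and signed fold of the means, per the file headers. Benjamini-Hochberg adjustment of the deposited p-values was repeated across the 16516 genes with a threshold of 0.05 and returned the authors' FDR, while for isoform make-up it differed from theirs by at most 0.00347; the same adjustment was tested on simulated data. No fold is given against a mean at or under 0.1, called the floor. The ratio compares linear means, so where libraries vary widely its direction can differ from that of the tested quantity.

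Members, classes and lists were chosen with earlier results of these data known. Every chain was accounted for; a chain was named with its values where a mean reached 10 or a pair passed (38 chains), and the other 4 (Col4a3, Col4a4, Col6a6 and Col19a1) were named after their values were seen; of each pathway list the 3 genes of smallest p per pair were named, except 1 result that is not reported here. Alternatives were an FDR of 0.01, a fold of 2, a filter at a mean of 1, centring on all genes, a pseudocount of 1 and the stage lists. Promoter sequences are from RefSeq (GRCr8). Python 3.11.15, pandas 2.3.3 and matplotlib 3.10.9 were used.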

Additional observations from a re-analysis of the deposited data

How the results depend on the processing

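The total counts of chains that passed stayed within 1.5 times under the alternatives that could change them, but not all counts of higher chains did. For secretory against cervical loop, maturation against secretory and maturation against cervical loop they were 9, 12 and 20 at an FDR of 0.01, 11, 13 and 20 when a 2-fold difference was also required, and 12, 16 and 24 when adjusted over genes with a mean of at least 1. Higher and lower chains in the same order of pairs, 6 and 7, 9 and 8, and 12 and 13 as reported, became 3 and 6, 4 and 8, and 8 and 12 at an FDR of 0.01, and 5 and 6, 5 and 8, and 8 and 12 with the 2-fold requirement. Centring on the median of all genes and the means of the stage lists touch only the direction, so the totals of 13, 17 and 25 could not move. The counts of higher and lower chains were as reported under both. No chain that passed changed direction under centring. A pseudocount of 1 cannot turn a direction, and the stage lists hold the same means rounded, so neither was a check of direction. The pseudocount moved the fold by over 1.5 times for 7 chains of low mean. The change in isoform make-up of Col25a1 was lost at an FDR of 0.01 (0 genes), a stricter threshold by construction. The collagen share of the summed means in cervical loop, secretory and maturation cells was 3.19%, 3.10% and 4.17% without the 12 other genes that were among the 10 of largest mean in some stage, and 0.736%, 0.506% and 0.938% without Col1a1, Col1a2 and Col3a1. No paired analysis was possible because each stage is deposited as 1 mean, and for the same reason no replicate could be left out. Low means limit what can be read for Col4a3, Col6a4, Col6a6, Col9a1, Col19a1, Col20a1, Col23a1 and Col28a1, among others. The reads behind each mean are not known.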
